A study of Mus musculus with 12 samples.

Results

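The 6 arrays described here each held RNA from T cell lymphoma blasts sorted from the thymus of a TCF-1 KO mouse, out of 12 arrays in all. They were chosen by their label alone, and X- and Y-linked genes were left out. The lymphoma-bearing mice were 12 to 40 weeks old and of strain C57/BL6. All of them lacked TCF-1, so there was no tumour with TCF-1 to set beside them, and the labels do not describe the allele. The other arrays held DN3 thymocytes, sorted from 3 wild-type and 3 TCF-1 KO mice of the same strain aged 8 to 12 weeks. They serve here only as a measure of how far sorted cells of one genotype differed between mice. The labels call all arrays biological replicates but give no litters or sampling days. The p-values therefore reflect only the spread between these samples, which may in part be technical.

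TCF-1 binds DNA through an HMG box, helps to set up the T cell program in the thymus and works with beta-catenin in Wnt signalling. T cell lymphomas of the thymus arise from precursors that are still assembling their antigen receptor, and each tumour is thought to grow out of one or a few cells. Tumours of one genotype can therefore differ in the stage at which they arose, in the receptor they carry and in the mutations they gained. Genes of the T cell program, of the cell cycle and of antigen receptor assembly are the usual places to look for such differences.

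Levels are log2 RMA signals, so a difference of 1 is 2-fold, and n is 6 lymphomas throughout. Of 19106 autosomal genes with a row of their own, 14329 had a mean signal at or above log2 4.80, the 25th percentile, and were tested. The arrays had median signals between 5.30 and 5.39. A group of 34 rows without a gene name split the arrays into a set of 4 (lymphomas 1 and 2 and replicate 1 of each DN3 group), at 6.02 to 6.35, and a set of 8, at 8.34 to 9.04. The labels do not name these array sets. Cd3e, a chain of the CD3 complex, was bright in all tumours, between 10.28 and 10.73. The B-lineage list had a mean level of 5.18 to 5.34 and the erythroid list one of 5.27 to 5.50, both near the array median. The myeloid and dendritic list lay at 5.35 to 5.58, against 5.26 to 5.55 in DN3 arrays. In bulk RNA, fewer cells of a type and less RNA per cell cannot be told apart.

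How the spread among the 6 lymphomas compared with that of DN3 samples depended on the DN3 baseline. The median SD over genes was 0.153 among lymphomas and 0.157 among DN3 arrays around their group means. The median ratio of the SDs was 0.98, and 48.1% of genes had the larger SD among lymphomas. With the replicate number as a block among the DN3 arrays, whose same-numbered samples deviated together, the ratio was 1.34. With it, 65.9% of genes had the larger SD among lymphomas. The block was fitted to the DN3 arrays only. Their replicate 1 arrays are those of the smaller array set, while any difference between array sets stayed in the lymphoma SDs. With the array set as a term on both sides the ratio was 1.02. It was 1.23 against wild-type DN3 arrays alone and 0.96 against TCF-1 KO DN3 arrays alone. Any 2 lymphomas differed by a median of 0.156 per gene (range 0.122 to 0.200 over 15 pairs), wild-type DN3 pairs by 0.134 to 0.150 and TCF-1 KO DN3 pairs by 0.164 to 0.206. Large differences involved few genes. Between 48 and 288 genes differed by at least 2-fold in a pair of lymphomas, with a median of 109, against 17 to 46 in wild-type and 12 to 98 in TCF-1 KO DN3 pairs. Within one array set the numbers were 48 to 137 for lymphomas, 17 for the single wild-type pair and 12 for the single TCF-1 KO pair. Lymphomas 1 and 4 differed most, with 288 such genes, and lymphomas 5 and 6 least, with 48.

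The variance of each gene among lymphomas was tested against its DN3 variance by a two-sided F test, with the DN3 variance moderated by limma and p-values adjusted by the method of Benjamini and Hochberg. At an adjusted p under 0.05, 74 genes (0.516% of those tested) varied more among lymphomas and 5 (0.0349%) varied less. At an unadjusted p under 0.05 there were 625 and 578. The count of 74 depended on the baseline. With the replicate number as a block among DN3 arrays only, 460 genes (3.21%) were called more variable, all 74 among them. With the array set as a term 138 (0.963%) were called, including 68 of the 74, and with no moderation none was. Without wild-type replicate 3 the count was 48, and without TCF-1 KO DN3 replicate 1 it was 130. The highest lymphoma exceeded the lowest by at least 2-fold in 622 genes (4.34%). Lymphoma 1 was the highest tumour for 278 of these and lymphoma 4 the lowest for 216.

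**Figure D1:**
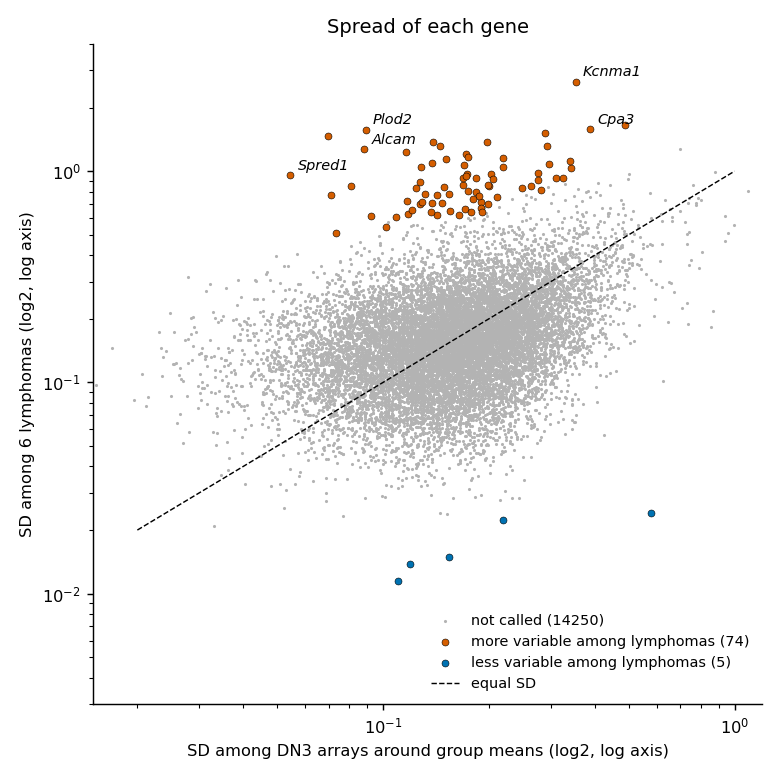
SD of each of 14329 genes among 6 lymphomas (vertical axis, log2 signal) against its SD among DN3 arrays around their group means (horizontal axis), both on log axes. Grey points were not called, 74 orange points were called more variable and 5 blue points less variable; the dashed line marks equal SDs, around which the cloud lies.

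Among the 74 genes the highest tumour exceeded the lowest by 2.68-fold to 95.0-fold, with a median of 4.67-fold. In 64 of them at least 1 lymphoma lay above all DN3 arrays, in 43 at least 1 lay below, and in 33 both were true. At least 1 lymphoma lay within the DN3 range for 59 genes. The 74 were called for their spread against DN3 arrays, so tumours outside the DN3 range follow in part from that choice. The same counts were not made over all genes tested. The widest gap between ordered tumours set a single tumour apart from the other 5 in 41 of the 74 (55.4%), 28 times as the high one and 13 times as the low one. The same held for 56.9% of all genes tested, so single-tumour patterns were no more frequent among the called genes. The gap fell between the array sets in 4 of the 74.

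Kcnma1, which encodes the pore of the large-conductance calcium-activated potassium channel, varied most. It stood at 10.66 in lymphoma 4 and 7.10 in lymphoma 2, and at 4.14, 4.09, 4.35 and 4.37 in lymphomas 1, 3, 5 and 6. DN3 arrays lay at 3.88 to 4.85, so 4 tumours were within the DN3 range and 2 far above it (SD 2.65, adjusted p = 1.45e-05). The calcium-activated potassium channel gene Kcnn2 was called as well, at 5.83, 6.38 and 5.95 in lymphomas 1, 2 and 3 and 4.50 to 5.00 in the others.

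Several genes were high in 1 tumour and near the dim end of the array in the other 5. Plod2, a collagen lysyl hydroxylase, stood at 7.88 in lymphoma 6 and at 3.92 to 4.10 elsewhere (adjusted p = 1.37e-05). Ly86, which encodes the partner protein of the receptor CD180, stood at 8.19 in lymphoma 1, while the others lay between 4.88 and 5.14. The myeloid and dendritic list was at its lowest, 5.35, in that tumour, but reached only 5.58 in any tumour. The source of the Ly86 signal was not tested. Slc40a1, the iron exporter ferroportin, reached 7.43 in lymphoma 3, against 4.47 to 4.82 in the rest. Tex14, known from the intercellular bridges of germ cells, reached 7.56 in lymphoma 2 and did not exceed 5.01 in the others. Each of these 4 calls rested on its tumour: without it the variance ratio to DN3 was 0.308 for Plod2, 0.584 for Ly86, 1.08 for Slc40a1 and 0.476 for Tex14, where 1 means equal variance.

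Lymphomas 2 and 6 shared a further set of high genes. Psma8, a proteasome subunit best known from testis, stood at 7.46 and 7.06 in these tumours and at 4.20 to 4.66 in the others (adjusted p = 1.37e-05). Ccdc88a, which encodes the actin-binding protein girdin, stood at 7.15 and 7.91 there and at 4.19 to 4.88 elsewhere. The DN3 range of Ccdc88a, 5.77 to 6.51, lay between these levels, so no tumour kept the DN3 level. Cibar1 followed the same division, with 6.75 and 6.95 against 4.53 to 5.51. These 2 tumours were on different array sets.

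Other genes divided the tumours more evenly. Nfib, a transcription factor of the nuclear factor I family, stood at 7.75, 6.85 and 6.79 in lymphomas 2, 3 and 4 and at 4.46 to 5.01 in lymphomas 1, 5 and 6 (DN3 4.34 to 4.93, adjusted p = 0.000202). Cym, annotated as the protease chymosin, gave 7.90, 7.99 and 8.43 in the same 3 tumours and 6.22 to 6.63 in the rest. Cpa3, a carboxypeptidase abundant in mast cells, stood at 7.76, 8.46 and 9.40 in lymphomas 1, 2 and 3 and at 5.62 to 5.93 in lymphomas 4, 5 and 6. Spred1, an inhibitor of Ras signalling, stood at 6.80, 6.30 and 6.49 in lymphomas 1, 5 and 6 and at 4.63 to 5.03 in the others. DN3 arrays were tight for Spred1, at 5.83 to 6.11, so 3 tumours were above and 3 below that level.

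The neighbouring genes Hspb2 and Cryab, which encode small heat shock proteins, were high in lymphomas 1 and 2. Hspb2 stood at 8.16 and 7.95 there and at 5.16 to 6.49 elsewhere, and Cryab at 7.71 and 7.28 against 5.53 to 6.18. Lymphomas 1 and 2 are the tumours of the smaller array set. With the array set as a term, Cryab was no longer called (adjusted p = 0.431). Xist, the RNA of the inactive X chromosome, was scored as high or low, divided midway between its lowest and highest array. With this score as a term neither call held (adjusted p = 0.320 for Hspb2 and 0.144 for Cryab). That term also ended the calls of Alcam (0.0503), Cibar1 (0.0670), Gm525 (0.0570) and Tead1 (0.0564). Rnu3a, a U3 small nucleolar RNA with several copies in the genome, divided the tumours the other way, at 7.68 and 7.91 in lymphomas 1 and 2 and 8.91 to 10.57 in the others.

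Other genes of the 74 set 1 or 2 tumours apart, as the low ones or, for Iftap, as the high one. Alcam, the adhesion molecule that binds CD6, stood at 8.68, 8.21, 6.42, 5.32, 7.30 and 8.13 in lymphomas 1 to 6, with DN3 arrays at 5.44 to 6.35 (adjusted p = 0.000165). Only lymphoma 4 was below the DN3 range. Ccdc50 was low in lymphomas 4 and 5, at 6.53 and 5.74, and lay at 8.00 to 8.36 in the others. Iftap was below every DN3 array (8.17 to 8.83) in 5 tumours, at 5.81 to 7.67, while lymphoma 6 stood at 8.46. Averaging the rows of Iftap ended its call (adjusted p = 0.0834). Ybx3, a cold shock domain protein that binds RNA, was low in lymphomas 2 and 4, at 6.66 and 6.35, against 7.96 to 8.63. Against TCF-1 KO DN3 arrays alone its adjusted p was 0.0506.

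**Figure D2:**
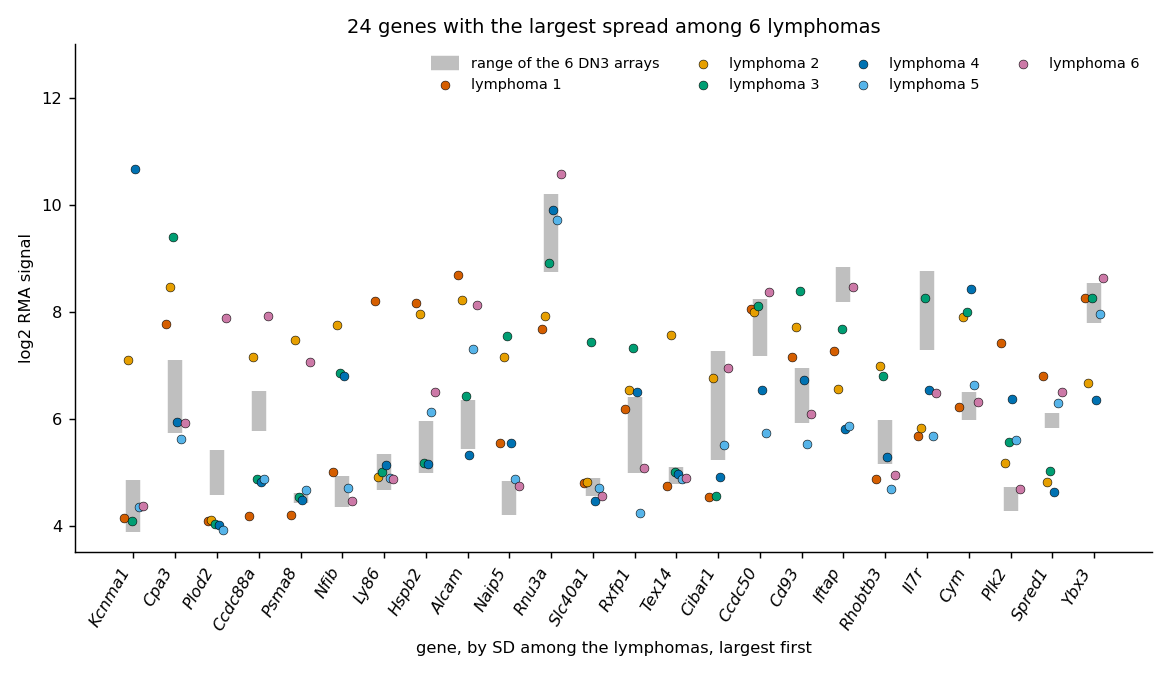
Log2 RMA signal (vertical axis) of the 24 genes with the largest SD among lymphomas, without predicted loci and receptor segments, in each of 6 lymphomas (coloured points); grey bars span the 6 DN3 arrays. Kcnma1 in lymphoma 4, at 10.66, lies farthest from the other tumours, and different tumours are high for different genes.

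A few members of the T cell lists were called, and their counts stand beside 0.516% of all genes called. Of 10 recombination genes tested, 2 were called more variable: Rag1 and Rag2, the subunits of the recombinase that cuts receptor gene segments. Rag1 stood at 8.67, 7.78, 8.69, 7.42, 8.65 and 9.63 in lymphomas 1 to 6, all below the DN3 range of 9.93 to 10.53 (adjusted p = 0.00613). Rag2 stood at 6.48 in lymphoma 6 and 5.64 in lymphoma 3, and at 4.84 to 5.03 in the others (DN3 6.03 to 6.82, adjusted p = 0.0310). Lymphoma 6 was thus the highest tumour for both, and without it neither call held (adjusted p = 0.0559 for Rag1 and 0.576 for Rag2). Rag2 was also not called without wild-type replicate 2 or 3 (0.0522 and 0.102) or without TCF-1 KO DN3 replicate 2 or 3 (0.0809 and 0.0749). Against TCF-1 KO DN3 arrays alone, the genotype of the tumours, neither was called (adjusted p = 0.0546 for Rag1 and 0.116 for Rag2). Rag2 was also lost with Xist as a term (0.0751) and after repeated quantile normalisation (0.0690). Dntt, the terminal transferase that adds bases at receptor joints, ranged only from 9.54 to 10.20 and was not called (adjusted p = 0.599).

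Of 13 genes for CD3, the pre-T cell receptor and coreceptors, 1 was called. Cd8a, the alpha chain of the CD8 coreceptor, stood at 5.82, 6.73, 6.38, 7.70, 7.39 and 5.88 in lymphomas 1 to 6 (adjusted p = 0.0106). The groups overlapped, since wild-type DN3 arrays lay at 5.67 to 6.03 and TCF-1 KO DN3 arrays at 6.98 to 7.05. Its adjusted p was 0.0517 without lymphoma 4, 0.0506 against TCF-1 KO DN3 arrays alone and 0.218 with Xist as a term. The median SD ratio of the list was 1.00. The beta chain gene Cd8b1 was at its highest, 8.14, in lymphoma 6, where Cd8a was near its lowest, and the 2 chains had an r of -0.12 over the tumours (exact permutation p = 0.803). Cd8b1 was called only with the replicate block (adjusted p = 0.0236, against 0.279). Cd4 was dim in all tumours, at 4.82 to 5.14. Cd3d, Cd3g and Thy1 spanned 1.46-fold, 1.21-fold and 1.47-fold and were not called.

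Of 14 interleukin receptor chains 1 was called, Il7r, the receptor chain for interleukin 7 that thymocytes need for survival. It stood at 8.26 in lymphoma 3, within the DN3 range of 7.29 to 8.76, and at 5.67, 5.82, 6.54, 5.68 and 6.47 in lymphomas 1, 2, 4, 5 and 6, all below it (adjusted p = 0.0142). Without lymphoma 3 the variance ratio was 3.87 and the adjusted p 0.678. The adjusted p was 0.0612 without wild-type replicate 3 and 0.0964 against TCF-1 KO DN3 arrays alone. All 14 chains had a larger SD among lymphomas than among DN3 arrays, where 48.1% of all genes did (65.9% with the replicate block, under which it was again all 14), and the median SD was 0.220 against 0.135. Il2rb, a chain shared by the interleukin 2 and 15 receptors, ranged from 5.44 to 6.41, and Il2ra, which marks the DN3 stage, from 9.89 in lymphoma 2 to 10.62; neither was called.

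Genes of the gamma-delta T cell program had the largest median SD of the 39 lists, 0.411 against 0.151 among DN3 arrays. Their median SD ratio to DN3 arrays was 1.48, which was not the largest. It was 1.66 for immediate-early genes and 1.64 for recombination genes. Of 9 tested, 2 were called, where 0.516% of all genes were. Etv5, an ETS factor of gamma-delta cells that make interleukin 17, stood at 8.27 to 9.36 in 5 tumours and at 6.66 in lymphoma 5, the one nearest to the DN3 range of 5.64 to 6.59. Without lymphoma 5 it was not called (adjusted p = 0.555). Blk, a Src family kinase of B cells and some gamma-delta cells, stood at 5.53, 6.36, 6.94, 7.40, 5.67 and 5.70 in lymphomas 1 to 6, with DN3 arrays at 5.49 to 5.87. Icos spanned 2.46-fold, Zbtb16, which encodes the innate lymphocyte factor PLZF, 2.20-fold and Cd163l1 2.02-fold, and none of the 3 was called. With the replicate block 4 of the 9 were called (3.21% of all genes), Icos and Zbtb16 being added, and with the array set as a term 3 (0.963%), Zbtb16 being added. The mean level of the list was 7.01 in lymphoma 3 and 6.86 in lymphoma 4, and 6.20 and 6.24 in lymphomas 5 and 6. Its members varied in parallel, with a median r of 0.57 over 36 gene pairs, against 0.01 among DN3 arrays.

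Receptor gene segments are described apart, and clonality was not measured. Of 9 segments with a row of their own, 6 were tested and 2 called, against 0.516% of all genes. Trgv1, a variable segment of the gamma chain, lay between 9.95 and 11.14 in 5 tumours and at 7.37 in lymphoma 6 (adjusted p = 5.63e-05). DN3 arrays lay at 10.23 to 10.95, so lymphoma 6 was far below them. Lymphomas 1 and 5, at 9.95 and 10.22, were also below every DN3 array. Trav19, a variable segment of the alpha chain, stood at 6.69 in lymphoma 1 and at 4.49 to 4.69 elsewhere (adjusted p = 0.000725). Without lymphoma 6 the call of Trgv1 was lost (adjusted p = 0.127), and without lymphoma 1 the variance ratio of Trav19 was 0.367. Related segments share sequence, so a row may also read its relatives.

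Single members were called in 3 further lists. Cd93, a receptor of early progenitors, was 1 of 14 progenitor genes and stood at 7.16, 7.71, 8.38, 6.73, 5.52 and 6.08 in lymphomas 1 to 6 (adjusted p = 0.00102). The median SD of the progenitor list was 0.119, against 0.172 among DN3 arrays, and Kit ranged from 4.89 to 5.27. The genes of this list were dim, with a median level of 5.30, and dim signals are compressed. Tested genes with levels of 3.97 to 5.27 had a median SD of 0.13 among lymphomas. The low SD of the list therefore does not show steady expression. Of its 14 genes, 3 had the larger SD among lymphomas (48.1% of all genes), and 7 with the replicate block (65.9%). Plk2, a kinase induced by p53, was 1 of 16 p53 targets and stood at 7.41 in lymphoma 1, 6.37 in lymphoma 4 and 4.68 to 5.60 elsewhere. Without lymphoma 1 its adjusted p was 0.0871. Asns, asparagine synthetase, a target of the amino acid stress response, was 1 of 17 heat shock and stress genes and ranged from 4.73 in lymphoma 5 to 6.74 in lymphoma 6 (adjusted p = 0.0255). Its call was lost without either of these tumours (adjusted p = 0.194 and 0.226). It was also lost without wild-type replicate 2 (0.0561) or TCF-1 KO DN3 replicate 2 or 3 (0.0612 and 0.101), against TCF-1 KO DN3 arrays alone (0.0628) and with Xist as a term (0.172).

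No member was called in the other 32 lists, which held 467 genes. This depended on the baseline: with the replicate block 23 of the 467 (4.93%, against 3.21% of all genes) were called, in 16 of the lists, and with the array set as a term 8 (1.71%, against 0.963%), in 7 lists. The integrin subunits had 3 such genes with the block, Itga4, Itga6 and Itgae, and the respiratory list 3, Ndufb8, Uqcrb and Cox7a2. The 19 T-lineage transcription factors had a median SD of 0.137, against 0.153 over all genes, and 1 member, Ets2, was called with the block. Their mean level lay between 7.97 and 8.07 in all 6 tumours. Other lists had means as narrow, such as the Myc network (6.82 to 6.89) and the Bcl-2 family (6.09 to 6.17). Differences average out in a mean over genes that do not vary together. Lef1, the relative of TCF-1, ranged from 9.99 to 10.40, Ikzf3, the lymphoid factor Aiolos, from 9.11 to 9.47 and Bcl11b, which T cell commitment requires, from 6.59 to 7.18. Gata3 ranged from 8.48 to 9.07 and Myc from 9.45 to 9.91. The beta-catenin target Axin2 ranged from 6.88 to 7.21, and Notch1 from 7.62 to 8.28. In these 7 genes no call was made, at adjusted p from 0.776 to 0.994. A missed threshold does not show equal levels, and the F test with 6 arrays sees only large differences. Of 31 genes of a fixed T cell panel that were tested, 4 were called, against 0.516% of all genes: Il7r, Rag1, Rag2 and Cd8a. None of the 4 was called against TCF-1 KO DN3 arrays alone.

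The chemokine receptor gene Ccr9, which directs thymocytes within the thymus and to the gut, missed the threshold (adjusted p = 0.0564). It stood at 7.56, 7.70, 8.15, 8.24, 7.42 and 6.18 in lymphomas 1 to 6, with lymphoma 6 the lowest. With the replicate block the adjusted p was 0.000688 and with the array set as a term 0.00286. Without TCF-1 KO DN3 replicate 1 or 2 it was 0.0140 or 0.0207, and without lymphoma 1, 2 or 5 it was 0.0421, 0.0367 or 0.0380. It was 0.0172 against wild-type DN3 arrays alone and 0.0458 with a robust variance trend. Id2, the inhibitor of E proteins, ranged from 6.70 in lymphoma 3 to 8.76 in lymphoma 2 (adjusted p = 0.200, and 0.0145 with the replicate block). Without TCF-1 KO DN3 replicate 1 it was 0.0221, and against wild-type DN3 arrays alone 0.0301. Hes1, a Notch target, ranged from 6.32 to 7.68 (adjusted p = 0.597, and 0.00818 with the block).

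Some bright genes hardly differed between tumours. Among genes with a mean lymphoma level above 6.87, the 12 with the smallest SD spanned at most 0.12 between tumours. Rplp0, Rps3 and Rps20, all ribosomal proteins, and Eef1a1, the elongation factor that brings transfer RNA to the ribosome, were 4 of them. Cdc42, a GTPase of the cytoskeleton, ranged from 9.34 to 9.46, Pik3ca, a catalytic subunit of PI3 kinase, from 7.56 to 7.68, and Sec62, a part of the protein translocation channel, from 7.66 to 7.74. Prpf3, Rbck1 and Zfp106 spanned 1.07-fold each. Only 2 of the 12 were called less variable: A630089N07Rik, at 7.35 to 7.41 against 6.18 to 7.78 in DN3 arrays, and Gnptg, at 7.09 to 7.13 against 6.83 to 7.07. Gnptg was not called without lymphoma 1, 2, 4 or 5 (adjusted p = 0.0722, 0.0626, 0.0650 and 0.0581), after median-centring (0.102) or repeated quantile normalisation (0.619), or with Xist as a term (0.0646). A630089N07Rik was not called against wild-type DN3 arrays alone (0.0899) or after repeated quantile normalisation (0.147). The other called genes of this kind were Fam20c, Trmt13 and Rptor, named after their values were seen.

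In some lists the genes varied together although no single member was called. In others they did not: the median r over gene pairs was 0.02 for cholesterol synthesis, -0.06 for MHC class I and antigen processing and -0.08 for T cell receptor kinases and adaptors. The 24 genes of G2 and mitosis had a median r of 0.77 over 276 gene pairs among lymphomas, against 0.45 among DN3 arrays and 0.00 over all pairs of genes tested. After the mean of each array set was subtracted it was 0.84. The 23 genes of S phase and replication had a median r of 0.60 (DN3 -0.02). Of these, 21 had a larger SD among lymphomas (48.1% of all genes), and 20 with the replicate block (65.9%). The gene pairs of a list share the same 6 tumours, and these values are descriptions. The mean level of the mitotic list was 8.12, 7.83, 7.58, 7.88, 7.99 and 8.18 in lymphomas 1 to 6, so lymphoma 6 was highest and lymphoma 3 lowest. DN3 arrays ranged from 7.59 to 8.11. The replication list was also highest in lymphoma 6, at 7.96, and lay at 7.52 to 7.77 in the others.

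Mki67, the proliferation antigen Ki-67, and Top2a, the topoisomerase that separates sister chromatids, show this pattern in single genes. Mki67 ranged from 8.58 in lymphoma 3 to 9.16 in lymphoma 6, with a median of 8.96, and Top2a from 9.83 to 10.19 in the same tumours, with a median of 10.06. Pearson's r was 0.97 (exact permutation p = 0.00278, the smallest among the pairs tested) and Spearman's rho 0.94 (exact permutation p = 0.0167). Without the 2 tumours farthest from the median of Mki67 r was 0.83, and within array sets it was 0.99. Over the 19 pairs tested of 24 listed, the adjusted p was 0.0528 for r and 0.222 for rho, and no pair passed. With only 720 orders, a single pair could not have passed on rho after adjustment, even in perfect order. Cdk1, the kinase that drives entry into mitosis, ranged from 7.55 in lymphoma 3 to 8.40 in lymphoma 1.

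The promoters of Mki67, Top2a and Cdk1 are shown as the 150 bases before the RefSeq start of each gene in GRCm38.p6. They are read along the gene's strand. Capitals mark CCAAT, the box bound by NF-Y, and TTTGAA, the core of the cell cycle genes homology region, on either strand (so also as ATTGG and TTCAAA). The 3 windows lie on the minus strand, at chr7:135716380-135716529 for Mki67, chr11:99024190-99024339 for Top2a and chr10:69352913-69353062 for Cdk1.
Mki67: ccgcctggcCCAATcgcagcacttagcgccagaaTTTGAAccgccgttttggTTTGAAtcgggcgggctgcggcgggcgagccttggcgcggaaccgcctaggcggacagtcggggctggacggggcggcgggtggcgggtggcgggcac
Top2a: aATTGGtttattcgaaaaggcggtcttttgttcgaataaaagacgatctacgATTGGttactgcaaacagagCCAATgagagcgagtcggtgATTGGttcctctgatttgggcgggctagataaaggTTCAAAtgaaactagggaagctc
Cdk1: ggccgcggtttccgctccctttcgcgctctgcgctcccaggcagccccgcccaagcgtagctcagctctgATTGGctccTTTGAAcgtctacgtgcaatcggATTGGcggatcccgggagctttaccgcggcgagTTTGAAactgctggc

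Promoters were found for 20 genes of the mitotic list. In the 250 bases before the start, 17 of the 20 (85.0%) held CCAAT on either strand, against 33.8% of 32851 promoters. TTTGAA was present in 7 of the 20 (35.0%), the 3 shown above among them, against 16.0%. The lists hold 1 promoter per gene, while the 32851 can hold several of a gene. Of 19 promoters of the replication list, 12 (63.2%) held CCAAT and 3 (15.8%) TTTGAA. Of 15 promoters of immediate-early genes, 5 (33.3%) and 2 (13.3%) did. A match is a description of the letters, not a site of binding, and any part of these motifs in the shared variation was not tested.

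Respiratory chain, ribosomal protein and proteasome genes also varied in parallel, while 13 glycolysis genes had a median r of 0.07. The median r was 0.71 for 25 genes of the respiratory chain and ATP synthase (DN3 0.32), 0.68 for 20 ribosomal protein genes (DN3 0.28) and 0.53 for 26 proteasome genes (DN3 0.27). All 3 lists had their highest mean in lymphoma 1, at 9.33, 11.14 and 9.42. The respiratory list lay at 8.86 to 9.10 in the other tumours. The ribosomal list was second highest in lymphoma 2, at 11.10, and lay at 10.87 to 10.97 in the 4 tumours of the larger array set, so its level moved with the array set. The part of the array set in this was not tested beyond subtracting its means, after which r was 0.54 for the ribosomal and 0.73 for the respiratory list.

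Immediate-early genes are switched on quickly by receptor signals. Of 19 tested, 17 had a larger SD among lymphomas than among DN3 arrays, against 48.1% of all genes, and none was called. With the replicate block 16 had the larger SD, against 65.9%. Under that block 4 were called (3.21% of all genes), Jun, Egr2, Nr4a1 and Dusp1. With the array set as a term 2 were called (0.963%), Egr2 and Dusp1. The mean level of the list was 6.26, 6.27 and 6.38 in lymphomas 1, 2 and 4 and 5.98, 5.93 and 5.76 in lymphomas 3, 5 and 6. Dusp1, a phosphatase of MAP kinases, ranged from 6.06 in lymphoma 6 to 8.06 in lymphoma 4 (adjusted p = 0.164), and Jun, a subunit of AP-1, from 5.94 in lymphoma 6 to 7.99 in lymphoma 1 (adjusted p = 0.0730).

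**Figure D3:**
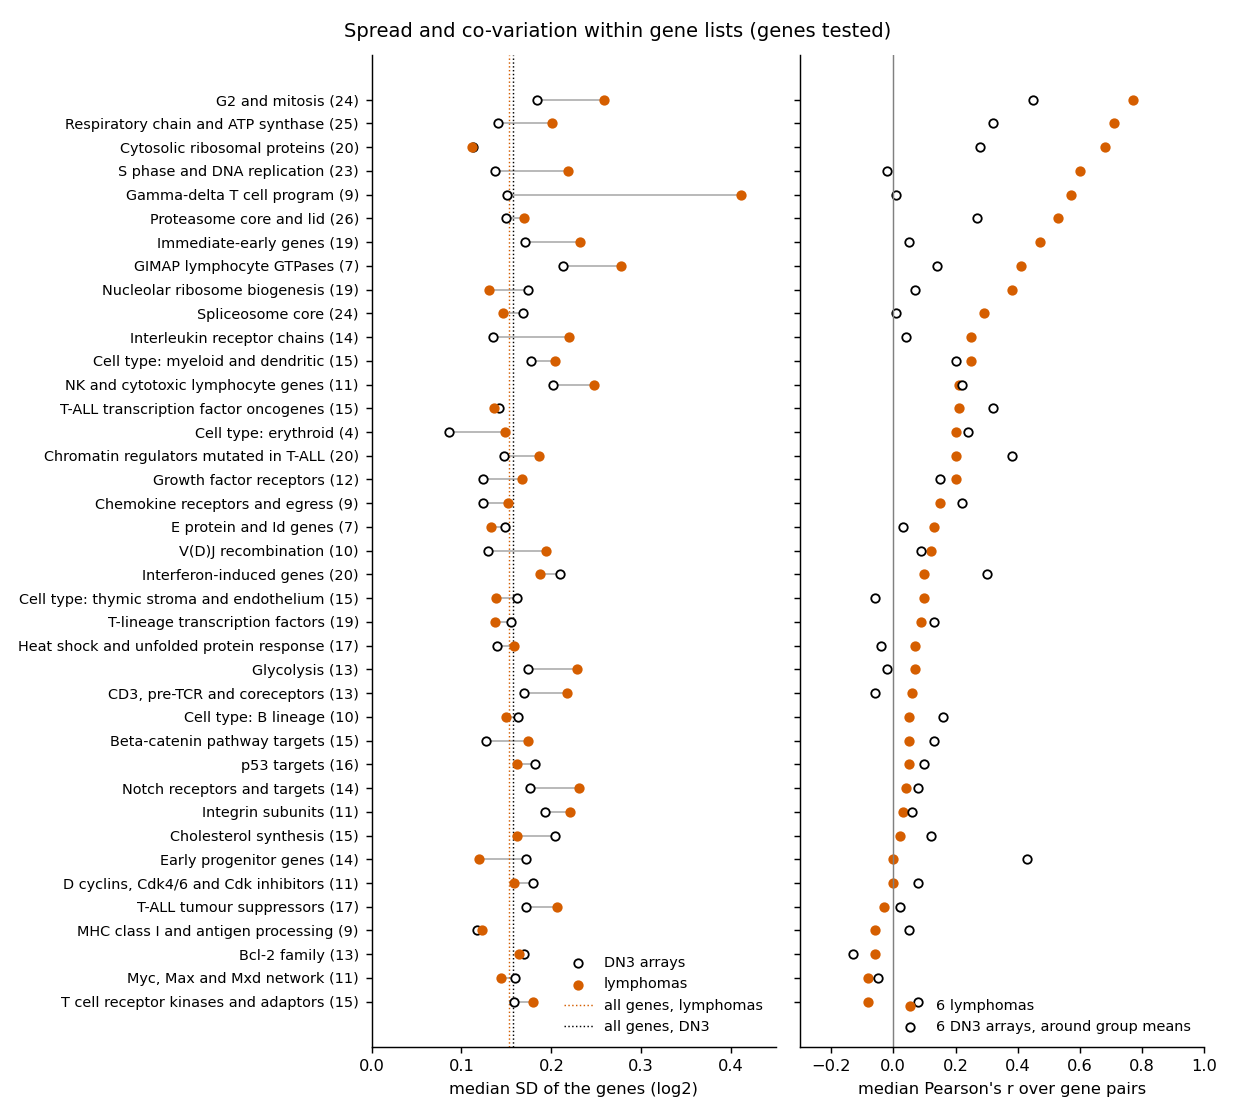
Left, median SD (log2) of the genes of each of 39 lists among lymphomas (orange) and DN3 arrays (open circles), with dotted lines for all genes tested; right, median Pearson's r over gene pairs of the list in both sets of arrays. Lists are ordered by r among lymphomas, from G2 and mitosis at 0.77 down, and the gamma-delta list has the largest SD, 0.411.

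**Figure D4:**
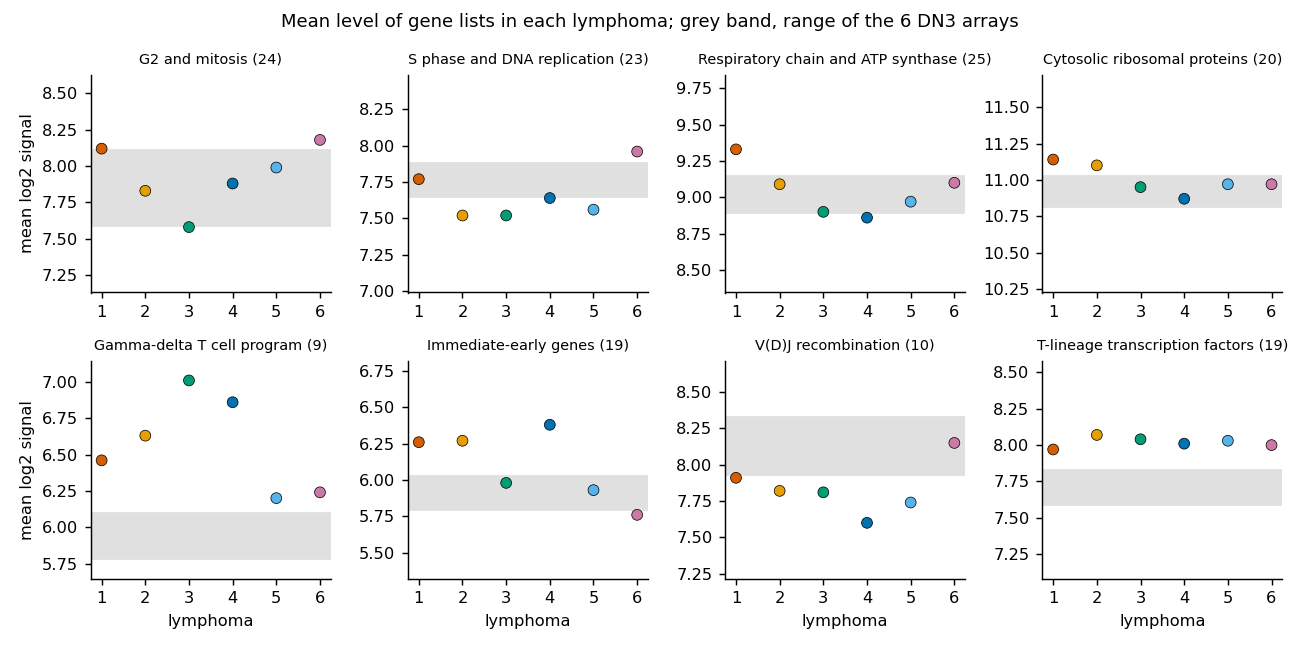
Mean log2 signal of 8 lists (vertical axes, all spanning 1.5 units) in lymphomas 1 to 6 (horizontal axis), with the range of the 6 DN3 arrays in grey. The gamma-delta list is highest in lymphomas 3 and 4, the cell cycle lists in lymphoma 6 and the respiratory list in lymphoma 1. The mean of the T-lineage factors, whose members did not vary together (median r 0.09), lies between 7.97 and 8.07.

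Other pairs of related genes were less tightly tied. Rag1 and Rag2 had an r of 0.79 (exact permutation p = 0.0542, adjusted 0.206) and a rho of 0.83 (p = 0.0583 by exact permutation, adjusted 0.222). Without the 2 tumours farthest from the median of Rag1 r was 0.28, so the relation rests on those tumours. Gimap4 and Gimap6, neighbouring GTPase genes of lymphocytes, had an r of 0.81 (exact permutation p = 0.0486, adjusted 0.206), and 0.58 without the 2 farthest tumours. Notch1 and its target Hes1 had an r of -0.80 (exact permutation p = 0.0347, adjusted 0.206), which was -0.35 within array sets. Of the 19 pairs, 3 had a p under 0.05 for r before adjustment, and 11 had r above 0.

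The 74 genes did not form large blocks. An absolute r of at least 0.9 was found in 2.30% of their 2701 pairs, against 2.19% of all gene pairs. Clustering on 1 minus r, with the tree divided at 0.5, gave 12 groups, of which 3 held at least 10 genes. The first, of 20 genes, was highest in lymphoma 3, with a mean of 1.28 above the gene averages, then in lymphoma 2, at 0.69. It held Cpa3, Nfib, Trgv1 and Naip5, a sensor of bacterial flagellin that stood at 7.15 and 7.54 in lymphomas 2 and 3 and 4.74 to 5.54 elsewhere. Naip genes are near-identical copies, so its row may read its relatives. The group also held Gm525, at 10.34 in lymphoma 3 and 5.90 to 6.64 elsewhere (without that tumour the variance ratio was 0.939), and 2310067E19Rik, at 7.56 in lymphoma 2 and 6.03 in lymphoma 3.

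The second group, of 13 genes, was highest in lymphoma 1, with a mean of 1.31, and held Ly86, Hspb2, Cryab, Plk2 and Trav19. It also held Trim13, a ubiquitin ligase, at 8.21 in lymphoma 1, 7.44 in lymphoma 2 and 5.80 to 6.75 elsewhere. The call of Trim13 was lost in 12 of 26 alternatives, among them the array set as a term (adjusted p = 0.361) and the absence of lymphoma 1 (0.352) or 4 (0.0698). It was also lost without wild-type replicate 2 or 3 (0.0857 and 0.0637) and without TCF-1 KO DN3 replicate 3 (0.129). The third group, of 10 genes, was lowest in lymphoma 4, with a mean of -1.41, and held Alcam, Spred1, Ybx3 and Rag1. Tead1, a factor of the Hippo pathway, stood there at 5.09 and in lymphoma 3 at 5.86, against 6.86 to 7.41 in the others. It was not called without lymphoma 4 (adjusted p = 0.125). Plxdc2 ranged from 5.11 in lymphoma 4 to 7.55 in lymphoma 1 and was not called without lymphoma 1 or 4 (0.0742 and 0.213) or without wild-type replicate 2 or 3 or TCF-1 KO DN3 replicate 2 or 3 (0.0571, 0.0644, 0.0508 and 0.0749). It was also lost against TCF-1 KO DN3 arrays alone (0.108) and with Xist as a term (0.622). The row 5031434C07Rik stood at 6.48 in lymphoma 4 and 8.99 to 9.76 elsewhere, and was not called without that tumour (adjusted p = 0.593).

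The other genes of the 24 with the largest spread followed mixed patterns. Rxfp1, a relaxin receptor, was low in lymphomas 5 and 6, at 4.23 and 5.08, and stood at 6.18 to 7.32 in the others. It was not called without lymphoma 5 (adjusted p = 0.138) or against TCF-1 KO DN3 arrays alone (0.0506). Rhobtb3 was high in lymphomas 2 and 3, at 6.98 and 6.80, against 4.68 to 5.28. Its call was lost without lymphoma 2 or 3 (adjusted p = 0.0869 and 0.0541) or wild-type replicate 3 (0.0637), against TCF-1 KO DN3 arrays alone (0.0738) and after repeated quantile normalisation (0.0692).

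Whole chromosomes were compared by the median, over their genes, of the level minus the median of the other arrays of the group. The chromosomes named here were chosen after their values were seen, and no test was made. Chromosome 14 stood apart. Over its 295 genes above the median level, the value was 0.193 in lymphoma 5 and 0.118 in lymphoma 3, and -0.0916, -0.110, -0.0718 and -0.0782 in lymphomas 1, 2, 4 and 6. DN3 arrays lay between -0.0191 and 0.0371. In lymphoma 5, 243 of the 295 genes (82.4%) lay above the other tumours' median and in lymphoma 3, 212 (71.9%), against 30.2% to 41.7% in the other tumours and 46.1% to 53.2% in DN3 arrays. The difference ran along the whole chromosome: over 4 successive runs of its genes the values were 0.169, 0.198, 0.218 and 0.190 in lymphoma 5 and 0.150, 0.122, 0.112 and 0.107 in lymphoma 3. Measured from the mean of the DN3 arrays, lymphomas 5 and 3 stood at 0.285 and 0.241 and the other tumours at 0.0409 to 0.0586. Over all 515 genes of the chromosome, dim ones included, the values were 0.0945 and 0.0642.

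Apart from chromosome 14, values for the brighter genes lay between -0.0797 and 0.0919 in the lymphomas and between -0.0728 and 0.0625 in DN3 arrays. The highest was chromosome 12 in lymphoma 2, where the first 2 of 4 successive runs of genes stood at 0.156 and 0.271 and the last 2 at -0.0322 and -0.0284. In each of the first 2 runs 85.5% of genes lay above the other tumours' median. Lymphoma 1, the other tumour of the smaller array set, stood at 0.0545 and 0.116 in these runs, with 59.4% and 75.4% of genes above. The tumours of that set were thus the highest there. Over the brighter genes of the chromosome, the wild-type and TCF-1 KO DN3 arrays of the smaller set stood at 0.0156 and -0.000137. The other DN3 arrays lay between -0.0126 and 0.0251. The part of the array set was not tested. Lymphomas 3, 4 and 5 lay between -0.137 and -0.0555 in both runs and lymphoma 6 at 0.0317 and 0.0141. The lowest value was that of chromosome 18 in lymphoma 4, where 30.3% of 188 genes lay above the other tumours' median.

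**Figure D5:**
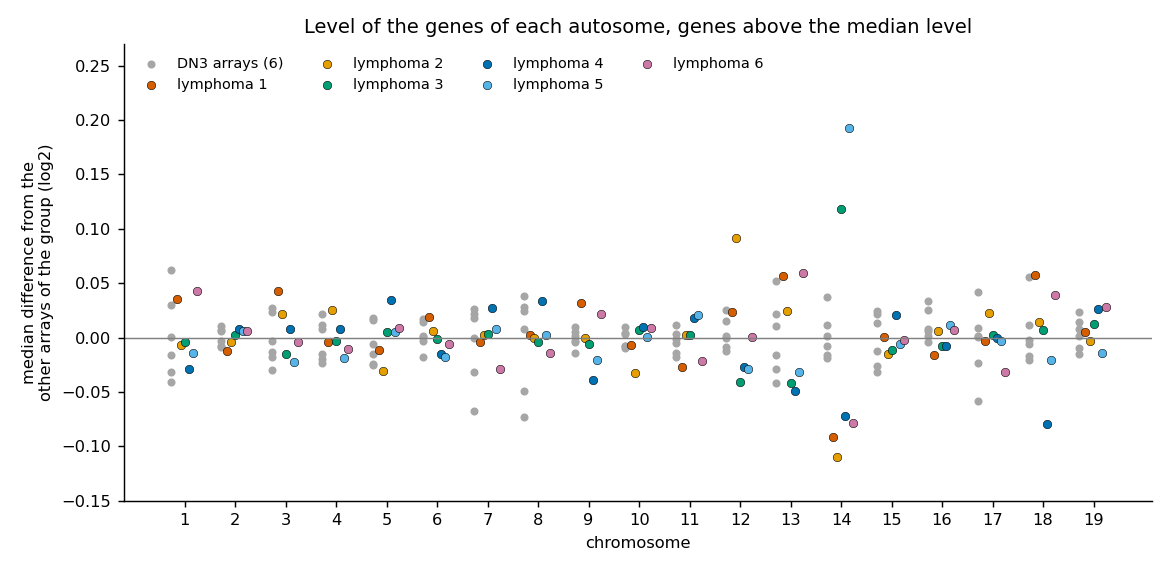
Median over the brighter genes of each autosome (horizontal axis) of the log2 level minus the median of the other arrays of the same group (vertical axis), for 6 lymphomas (coloured) and 6 DN3 arrays (grey). On chromosome 14 lymphomas 5 and 3 lie at 0.193 and 0.118 and the other tumours below 0.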

How the data were processed

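The authors deposited log2 signals of 12 GeneChip Mouse Gene ST arrays, which the submitters' processing notes tie to RMA and Partek. For their versions, settings and build, nothing is given in the sources used here, and base 2 is inferred from the range of the values. Total RNA was amplified with a NuGEN Pico kit, per the labels' protocols. RMA brings arrays to a common distribution, so differences are relative to the other genes, and dim signals are compressed.

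Of 35556 rows, 21789 had 1 symbol in the platform annotation, 1621 several and 12146 none. RefSeq (GRCm38.p6) gave names and gene order for 21698 rows. The row with the highest mean stood for a gene (999 genes had several rows), which left 19938 genes. Of these, 739 on X, 9 on Y, 82 with no chromosome and 2 elsewhere were left out, and 4777 were too dim to test. The lymphoma variance (5 degrees of freedom) was divided by the DN3 residual variance (4, with a prior of 7.5), moderated with a trend by squeezeVar of limma 3.58.1 in R 4.3.3. The test was checked on simulated data with independent noise. These data held no array sets and no shared deviations of replicates, so the check does not bear on the choice of baseline. Other steps used Python 3.11.15 with pandas 2.3.3, numpy 2.4.6 and scipy 1.17.1. For correlations, exact p-values came from the 720 orders of the 6 tumours. The array sets come from unnamed rows whose levels left a gap of at least 1 (log2) between them; the next most frequent division had 27 rows.

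Members, lists and gene pairs were chosen with earlier results of these data known. The rule for named genes took the 24 largest SDs among called genes (no predicted loci or receptor segments) and the 12 smallest SDs above the 75th percentile of level. It added up to 4 called members per list, the 6 largest SDs of each large co-varying group and a panel of T cell genes and pairs. Other list members, the segments, and called genes such as Kcnn2 were picked with their values in view. The deleted gene is not reported here.

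Replicate numbers of the DN3 arrays were taken to pair them. Deviations of same-numbered wild-type and TCF-1 KO arrays from their group means correlated at 0.51, 0.42 and 0.26, where the pairs of different number in the larger array set gave 0.06 and -0.05. The number 1 arrays are both in the smaller array set. Alternatives covered the variance model, the baseline, the array set, scaling, the filter, rows per gene, Xist scored as high or low, and each array left out. The larger array set alone and the brighter genes of a chromosome were added after seeing the data.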

Additional observations from a re-analysis of the deposited data

Results flagged for a closer look

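For each named gene and the mean of each list, the gap between the most extreme tumour and its nearest neighbour was divided by the range of the 6 lymphomas, and ratios past Dixon's critical value for 6 samples are given. There were 14 in 130. Chance gives about 1 such case in 20 groups, but many of these genes were chosen for their spread among the same tumours, so that rate does not apply to them and the number is not read against it. A single tumour stood highest for Plod2 (0.96, lymphoma 6), Ly86 (0.92) and Trav19 (0.91, both lymphoma 1), Tex14 (0.91, lymphoma 2), and Slc40a1 (0.88), Gm525 (0.83) and Il7r (0.67, all lymphoma 3). A single tumour stood lowest for 5031434C07Rik (0.76, lymphoma 4), Trgv1 (0.68, lymphoma 6), Gnptg (0.67, lymphoma 3), Cdkn2a (0.67, 5.02 in lymphoma 2 against 5.33 to 5.48) and Irf7 (0.64, 5.21 in lymphoma 6 against 5.40 to 5.51). Il2ra (0.63) was lowest in lymphoma 2. The mean of 20 chromatin regulators mutated in T-cell leukaemia was lowest in lymphoma 1 (0.65), at 8.06 against 8.22 to 8.31.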

How the results depend on the processing

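Counts are given as more and then less variable genes, 74 and 5 as reported. They were 0 and 1 with no moderation, 138 and 9 with the array set as a term and 460 and 9 with the replicate block among DN3 arrays. With Xist, scored as high or low, as a term they were 42 and 2. Against wild-type DN3 arrays alone they were 94 and 3, against TCF-1 KO DN3 arrays alone 41 and 5, after median-centring 80 and 3, after repeated quantile normalisation 56 and 2, and in the larger array set alone 118 and 4. Leaving out 1 array gave 48 to 130 and 1 to 6, and 22 of the 74 were called in every such fit. The median SD ratio, 0.98 as reported, was 1.34 with the replicate block among DN3 arrays only and 1.02 with the array set as a term. It was 1.23 against wild-type arrays, 0.91 with Xist, 1.05 in the larger array set and 0.93 to 1.10 with 1 array left out. The causes of these shifts were not tested. The block ended no call of the 74.

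Of 39 named genes called more variable, 19 were called with any array left out. The variance ratio with 1 array left out ran from 0.939 to 37.5 for Gm525, 0.308 to 177 for Plod2, 0.584 to 94.2 for Ly86, 0.476 to 67.7 for Tex14 and 0.367 to 54.6 for Trav19, the lowest without the tumour that stood apart. In the larger array set alone it was 0.865 for Ly86, 0.170 for Tex14 and 0.297 for Trav19, whose high tumours are not in it.

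Chromosome 14 gave 0.0945 over all genes in lymphoma 5, 0.149 from the DN3 mean, 0.193 over brighter genes and 0.285 with both; lymphoma 3 gave 0.0642, 0.111, 0.118 and 0.241. Chromosome 12 in lymphoma 2 gave 0.0919 over brighter genes and 0.0865 with both. Chromosome 18 in lymphoma 4 gave -0.0381 from the DN3 mean and -0.0497 with both. Of 19 gene pairs, r changed sign in 8 without the 2 farthest tumours and in 3 within array sets. The number of arrays, and for dim genes the floor of the signal, limit precision.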

Other observations

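Without the filter on dim genes, 3 further genes were called more variable. Chil5, a chitinase-like protein, stood at 5.57 and 6.28 in lymphomas 1 and 3 and at 4.15 to 4.28 in the others. Iltifb, annotated as an interleukin 22 gene copy, stood at 5.18, 5.94, 6.10 and 5.77 in lymphomas 2, 4, 5 and 6 and at 4.49 and 4.15 in lymphomas 1 and 3, with DN3 arrays at 3.55 to 4.13. Naip6, a relative of Naip5, was highest in lymphomas 2 and 3, at 5.42 and 5.80, the tumours in which Naip5 was highest.

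Further called genes, picked with their values in view, lie outside the lists. Trat1, a transmembrane adaptor of the T cell receptor, stood at 5.56, 5.15, 4.05, 6.60, 4.78 and 5.60 in lymphomas 1 to 6, all below its highest DN3 level of 7.59. Lsp1, an actin-binding protein of leukocytes, ranged from 6.84 in lymphoma 6 to 8.65 in lymphoma 4. Cst7, the cystatin of cytotoxic cells, ranged from 5.54 in lymphoma 6 to 8.13 in lymphoma 2. Marcks, a membrane-linked actin regulator, stood at 8.48 and 8.71 in lymphomas 4 and 6 and at 6.28 to 7.18 in the others, all below its highest DN3 level of 10.01. Atp8a2, a lipid flippase, was highest in lymphoma 4, at 9.73, the tumour in which Kcnma1 was highest.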
